A study of Homo sapiens with 6 samples.

Results

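The human mitochondrial genome holds 37 genes, all of which were among the 25969 genes analysed: 13 mRNAs, 2 rRNAs and 22 tRNAs. They were taken as every gene that GENCODE 29 places on chromosome M of GRCh38, whatever its level. RNA was sequenced from cells labelled LNCaP, a line derived from a human prostate cancer, in 3 libraries from cells transfected with a vector for overexpression of VIM-AS1, a long noncoding RNA, and in 3 libraries from cells given the pcDNA3.1 vector, the control, which the labels call WT in genotype. The labels give no time after transfection, and they do not say whether the libraries of a group come from separate cultures, so p-values measure the spread between these libraries only, which may be technical. Values are normalized read counts as deposited unless another quantity is named, and 3 values of a group are always given in the order of replicates 1 to 3.

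Human mitochondrial DNA is a small circle that is transcribed almost end to end from both strands into long precursors. Most genes are copied from the strand called heavy. MT-ND6 and several tRNAs are copied from the other strand, called light. The tRNAs lie between the mRNAs and rRNAs like punctuation, and nucleases cut them out, which frees the RNAs between them. The mRNAs encode core subunits of the respiratory chain and of ATP synthase, the rRNAs build the mitochondrial ribosome, and the tRNAs serve its translation. Nuclear genes encode every protein of the transcription, processing and decay of these RNAs.

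By the annotation, 28 of the 37 genes were copied from the heavy strand (14 tRNAs, both rRNAs and 12 mRNAs) and 9 from the light strand (MT-ND6 and 8 tRNAs). Of the 36 pairs of neighbouring genes, 20 abut with no base between them and 5 overlap. The largest overlap is the 46 bases that MT-ATP8 (chrM:8366-8572, plus strand) shares with MT-ATP6 (chrM:8527-9207, plus strand), and the next is the 7 bases that MT-ND4L shares with MT-ND4. Both pairs are known to be read from shared mRNAs in different frames. A read that touches both genes of a pair cannot be assigned to one of them, and how such reads were counted is not given in the sources used here. For this reason the whole of MT-ATP8, the mRNA with the lowest fold change, and the MT-ND4L to MT-ND4 junction are printed from GENCODE 29, 5′ to 3′, with the shared bases in capitals.
MT-ATP8 (chrM:8366-8572, plus strand): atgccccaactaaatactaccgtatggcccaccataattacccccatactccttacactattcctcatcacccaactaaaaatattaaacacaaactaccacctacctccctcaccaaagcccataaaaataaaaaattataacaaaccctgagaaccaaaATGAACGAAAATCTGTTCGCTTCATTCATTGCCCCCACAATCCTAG
MT-ND4L and MT-ND4 (chrM:10737-10789, plus strand): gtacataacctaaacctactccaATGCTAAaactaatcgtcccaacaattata

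The mRNAs also differ in how they end. In 7 of the 13 the annotated gene closes with a complete stop codon of the mitochondrial code, and in 6 only the first base or first 2 bases of one are encoded, which a poly(A) tail completes. The last 15 bases of those 6 genes are shown for that reason, with the encoded part of the stop in capitals.
MT-ND1: tccccctcaaaccTA
MT-ND2: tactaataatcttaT
MT-CO3: attgatgagggtctT
MT-ND3: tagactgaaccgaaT
MT-ND4: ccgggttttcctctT
MT-CYB: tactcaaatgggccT

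Among the tRNA genes, MT-TN and MT-TC held most of the tRNA reads, and MT-TP and MT-TR were called lower in 15 and 11 of the 31 fits described below, more than any other tRNA gene. Their sequences are given on the strand that is transcribed into tRNA, 5′ to 3′.
MT-TN (chrM:5657-5729, minus strand): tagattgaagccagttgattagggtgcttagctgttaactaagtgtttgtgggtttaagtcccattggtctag
MT-TC (chrM:5761-5826, minus strand): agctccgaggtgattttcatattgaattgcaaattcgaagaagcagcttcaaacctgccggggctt
MT-TP (chrM:15956-16023, minus strand): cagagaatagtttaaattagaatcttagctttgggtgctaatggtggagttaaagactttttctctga
MT-TR (chrM:10405-10469, plus strand): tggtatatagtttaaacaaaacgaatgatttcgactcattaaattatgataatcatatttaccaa

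The libraries held 14762893 to 19889745 reads, recovered from the deposited values. VIM-AS1 stood at 2197, 2019 and 2763 in its overexpression libraries and at 8.63, 1.22 and 5.53 in the controls. The third library differed most from the others in each group, clearly with VIM-AS1 and less so in the controls. The chi-square per degree of freedom between VIM-AS1 replicates 1 and 2 was 7.14, beside 45.5 and 69.2 for their pairs with replicate 3. Control replicates 1 and 2 also differed (41.4, beside 65.4 and 62.2 for their pairs with replicate 3). Each count of calls is therefore given for limma without a term for the third libraries and with one. Of 12 markers of prostate luminal cells, 8 were among the genes analysed. KLK3, which encodes the prostate-specific antigen that LNCaP cells are known to secrete, was at 0 in 5 of the 6 libraries, FOLH1 was at 0 to 3.84, and KRT8 and KRT18 were abundant. Defining markers of the labelled line were thus at or near 0. Among markers of other cells, COL1A1 and PDGFRB, which mark fibroblasts, were detected in every library (846.3 to 1651 and 806.4 to 1851), while COL1A2 and LUM were at or near 0, with at most 2.05. The summed share of the 6 fibroblast markers was 0.0118% to 0.0131% of reads with VIM-AS1 and 0.0186% to 0.0203% in the controls, 3 of the 4 tested (DCN, PDGFRB and COL1A1) were called lower with the third-library term, and their part in the results below was not tested.

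Transcripts of the mitochondrial genome made up less of each VIM-AS1 library than of any control library. They held 7.06%, 6.86% and 5.57% with VIM-AS1 and 8.73%, 14.3% and 11.8% in the controls. Every VIM-AS1 library lay below every control, with means of 6.50% ± 0.811 against 11.6% ± 2.78 (SD, n = 3 each), a mean in the controls 1.79 times that with VIM-AS1 (two-sided p = 0.1 by an exact permutation test, below which groups of 3 cannot go). Counting error was small beside this spread, the Wilson 95% interval of the lowest share reaching from 5.55% to 5.58%. The controls differed widely among themselves, and without control replicate 2 the difference was -3.80 percentage points in place of -5.12. In bulk RNA, fewer mitochondria, less RNA in each, and more RNA of nuclear genes cannot be told apart.

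**Figure D1:**
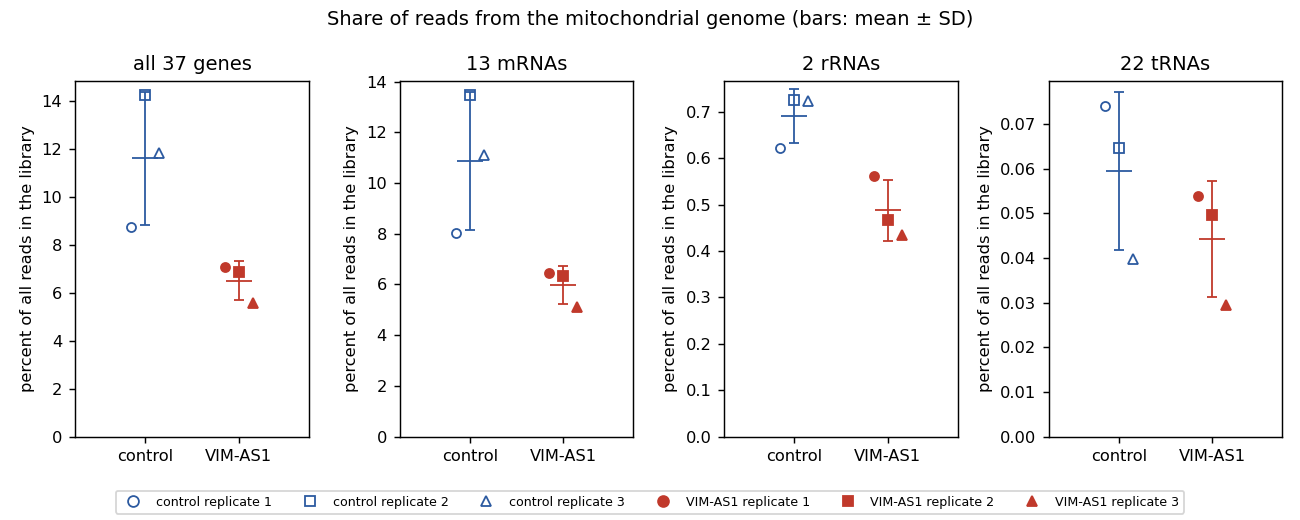
Percent of all reads in each library that fell on the 37 genes, the 13 mRNAs, the 2 rRNAs and the 22 tRNAs, with points for the libraries and bars for mean ± SD. The VIM-AS1 libraries lie below every control for all genes, mRNAs and rRNAs, and the groups overlap for tRNAs.

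The mRNAs made up most of this total, and both they and the rRNAs were lower with VIM-AS1. The mRNAs held 6.44%, 6.35% and 5.10% with VIM-AS1 and 8.04%, 13.5% and 11.1% in the controls, again with no overlap (5.96% ± 0.748 against 10.9% ± 2.73, exact permutation p = 0.1). The rRNAs held 0.562%, 0.467% and 0.435% with VIM-AS1 and 0.623%, 0.726% and 0.724% in the controls (0.488% ± 0.0664 against 0.691% ± 0.0591, exact permutation p = 0.1). The tRNAs held only 0.0538%, 0.0496% and 0.0295% with VIM-AS1 and 0.0742%, 0.0646% and 0.0397% in the controls. Here the groups overlapped (0.0443% ± 0.0130 against 0.0595% ± 0.0178, exact permutation p = 0.3), and the third library of each group was the lowest.

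No mitochondrial gene passed limma without a term for the third libraries. In that test 0 of 37 had an adjusted p under 0.05, where 0.0239% of all 20927 genes tested passed (0.00956% lower). An unadjusted p under 0.05 was found for 8 of 37, and for 2854 of the 20927 genes tested. edgeR's quasi-likelihood test and limma-voom on the recovered reads called none either (0.0191% of all genes each), and DESeq2 called MT-ATP8 (1.69% of all genes, 1.05% lower). With a term for the third libraries limma called 13 of 37 lower (10 mRNAs and 3 tRNAs) and none higher, where 7.94% of all genes tested were called lower and 11.5% higher. With the replicate number as a block, whose use is described with the processing, 19 were called lower (all 13 mRNAs, MT-RNR2 and 5 tRNAs), against 10.8% of all genes, and edgeR with the third-library term called 17 lower, against 8.64%. Below, "rose" and "fell" are used of genes that limma with the third-library term called at an adjusted p of 0.05, log2 fold changes are VIM-AS1 over control on the log2(value + 1) scale, and each is given ± the SE of that fit. The shift of the third libraries was found in these same data, so these p-values and SE may be too small. The block was also chosen from these data, and the labels give no pairing, so its p-values may be too small as well.

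The number of calls changed with the libraries used. With the third-library term, leaving out VIM-AS1 replicate 1 or 2 left 7 and 4 calls, where 1003 and 1055 of all 20927 genes tested were called lower. Without control replicate 2 there were 6, where 1277 were lower over all genes. Without control replicate 1 there were 19 (18 lower, among them 12 of the 13, and MT-TH higher), where 1591 were lower and 2747 higher over all genes. Only MT-TP was left without VIM-AS1 replicate 3 or control replicate 3, where 139 and 109 were lower over all genes. Leaving out both of these and the term also left only MT-TP, where 0.75% of all genes were called lower. Removing each library's trends with GC content and transcript length left MT-ATP8, MT-ND5, MT-ND6 and MT-TP with the third-library term, against 6.87% of all genes called lower. With the replicate block it left 12 genes, where 1850 were called lower over all genes. The median over the mRNAs was then -0.50 in place of -0.70. Of the genes that fell, MT-ND3 moved most in proportion, from -0.44 to -0.14. MT-ND2 (-0.43), MT-ATP6 (-0.42), MT-ND4L (-0.50), MT-ND6 (-0.37) and MT-TR (-0.55) also moved by over 1.5 times. In log2 units MT-TR (from -1.16 to -0.55) and MT-TD (from -2.07 to -1.48) moved most. All 13 mRNAs had a negative log2 fold change in each of the 31 fits run. Many of these fits share their fold changes by design. With all libraries kept, the term, the block and the filter on means cannot change a limma fold change. Their agreement in direction is thus no separate support.

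The log2 fold change had a median of -0.75 over the 7 mRNAs with a complete stop codon and of -0.68 over the 6 whose ends are shown above. By group overlap, 14 of the 37 genes were lower in every VIM-AS1 library than in every control and none was higher in every one, where 10.3% of all genes tested were lower and 9.5% higher in this sense, 19.8% in all. Among the 3243 genes with a mean of at least 1000, which include all 13 mRNAs, 2.34% were lower without overlap and 6.01% were called lower with the third-library term. Those 14 were 8 mRNAs, MT-RNR2 and 5 tRNAs. The median log2 fold change was -0.70 over the mRNAs, -0.28 over the rRNAs and -0.24 over the tRNAs, beside -0.02 over all genes tested. Without control replicate 2 the median over the mRNAs was -0.45, and without control replicate 1 it was -0.89. Between libraries of the same number the median over the mRNAs was -0.24 for replicate 1, with 11 of 13 lower, -1.08 for replicate 2 and -0.95 for replicate 3, with 13 of 13 lower in each. In the first pair MT-ND1 (0.14) and MT-ND4L (0.04) were the 2 that were not lower. Scaling to reads outside the mitochondrial genome moved the median of all genes by -0.13, and the mRNA fold changes stayed negative.

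**Figure D2:**
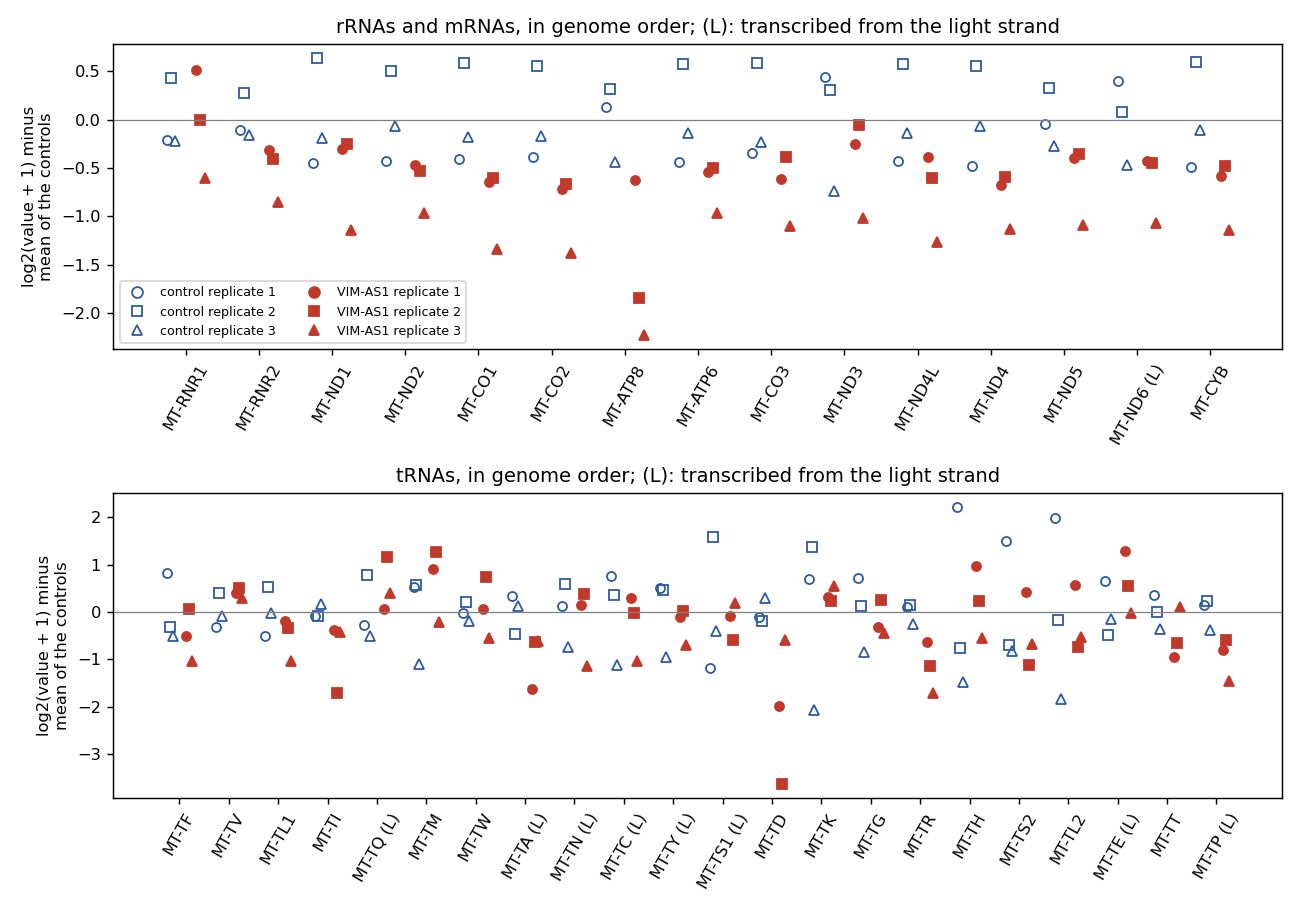
Level of each mitochondrial gene in each library, as log2(value + 1) minus the mean of the 3 controls, in genome order; the upper panel holds rRNAs and mRNAs and the lower panel tRNAs. Control replicate 2 is the highest library for most mRNAs and VIM-AS1 replicate 3 the lowest for all 13, while the tRNAs scatter in both directions.

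Cytochrome c oxidase, complex IV of the respiratory chain, has its catalytic core encoded by MT-CO1, MT-CO2 and MT-CO3, and all 3 were lower in every VIM-AS1 library. MT-CO1 (ENSG00000198804, chrM:5904-7445), the most abundant mitochondrial transcript by reads, had 344273, 353698 and 213390.2 with VIM-AS1 and 406616, 809384 and 475038 in the controls. MT-CO2 (chrM:7586-8269) had 200352, 207813 and 126558 with VIM-AS1 and 252841, 485818 and 292192 in the controls. Control replicate 2 was by far the highest for both. MT-CO2 fell (-0.92 ± 0.27, adjusted p = 0.021). MT-CO1 (-0.86 ± 0.31, adjusted p = 0.057) and MT-CO3 (-0.70 ± 0.26, adjusted p = 0.067) did not pass, while both were called lower with the replicate block (adjusted p = 0.0020 and 0.0019). MT-CO3 had 172999, 203644 and 123769 with VIM-AS1 and 208845, 398087 and 225835 in the controls, with VIM-AS1 replicate 2 close under the lowest control.

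ATP synthase receives 2 mitochondrial subunits, both of its membrane part, and MT-ATP8 had the lowest fold change of all mRNAs. MT-ATP8 had 943, 406 and 309 with VIM-AS1 and 1594, 1807 and 1070.2 in the controls. Its groups did not overlap, and VIM-AS1 replicates 2 and 3 lay under every other library. It fell (-1.57 ± 0.19, adjusted p = 2.03e-05), while limma without the third-library term gave 0.12. MT-ATP6, the larger subunit gene, which forms part of the proton channel, had 96053, 99009.7 and 71649 with VIM-AS1 and 103596, 209274 and 126982 in the controls. It fell as well (-0.67 ± 0.23, adjusted p = 0.049). The reads of MT-ATP8 numbered 302 to 1662 per library, and 46 of its 207 bases, those in capitals above, also belong to MT-ATP6. The ratio of MT-ATP8 to MT-ATP6 reads was 0.00982, 0.00410 and 0.00431 with VIM-AS1 and 0.0154, 0.00863 and 0.00843 in the controls, and the groups overlapped (exact permutation p = 0.3).

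Complex I, the NADH dehydrogenase, takes 7 mitochondrial subunits, of which 6 fell. MT-ND4 had 75417, 79952 and 55066 with VIM-AS1 and 86315, 177019.9 and 115376 in the controls (-0.80 ± 0.23, adjusted p = 0.018). MT-ND4L, which overlaps it, had 19722, 16942 and 10748 with VIM-AS1 and 19116, 38362 and 23408 in the controls (-0.75 ± 0.19, adjusted p = 0.0090). Both fell, although the first pair of libraries held almost the same amount of MT-ND4L. MT-ND5, another proton-pumping subunit, had 38331, 39449.6 and 23772 with VIM-AS1 and 48910.0, 63263 and 41661 in the controls (-0.61 ± 0.16, adjusted p = 0.0087). MT-ND2 had 56448, 54088 and 40061 with VIM-AS1 and 57998, 110573 and 74557 in the controls (-0.66 ± 0.21, adjusted p = 0.030). The groups of MT-ND4, MT-ND5 and MT-ND2 did not overlap. MT-ND3 had 21344, 24416 and 12583 with VIM-AS1 and 34426, 31349.9 and 15200.4 in the controls (-0.44 ± 0.13, adjusted p = 0.024), and control replicate 3 lay below the first and second VIM-AS1 libraries. MT-ND1, where the complex meets its quinone substrate, had 75941, 78767 and 42689 with VIM-AS1 and 69026, 146459 and 82482 in the controls. It did not pass (-0.57 ± 0.23, adjusted p = 0.095), control replicate 1 lying below the first and second VIM-AS1 libraries, and was called lower with the block (adjusted p = 0.0075).

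Cytochrome b, the one mitochondrial subunit of complex III, fell by a similar amount. MT-CYB had 64527, 69576 and 44079.5 with VIM-AS1 and 68966, 146947 and 89995 in the controls (-0.73 ± 0.23, adjusted p = 0.028). VIM-AS1 replicate 2 was just above control replicate 1, so the groups overlapped.

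MT-ND6 (ENSG00000198695, chrM:14149-14673, minus strand) is the only mRNA copied from the light strand. It had 9322, 9226 and 5984 with VIM-AS1 and 16537, 13264 and 9037 in the controls, with control replicate 3 just below the first and second VIM-AS1 libraries. It fell (-0.65 ± 0.12, adjusted p = 6.53e-04), close to the median of the mRNAs. Among the 7 complex I mRNAs the range was -0.80 to -0.44. Whether the libraries and the counting kept the strand is not given in the sources used here, and if they did not, RNA from the opposite strand would be counted with MT-ND6.

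Summed by template, genes of the light strand held 1.41%, 1.35% and 1.18% of mitochondrial reads in VIM-AS1 replicates 1 to 3 and 1.87%, 0.886% and 0.824% in control replicates 1 to 3. The VIM-AS1 libraries were alike and lay between control replicate 1 and the other controls. The log2 ratio of light to heavy strand differed by 0.24 (exact permutation p = 0.5), by 0.13 for mRNAs only and by 0.19 for tRNAs only. Without control replicate 1 the difference was 0.62, and without control replicate 3 it was 0.02.

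The rRNAs differed from each other. MT-RNR2, the large ribosomal subunit rRNA, had 80983, 75785 and 55655 with VIM-AS1 and 93409, 121341 and 89709 in the controls, each VIM-AS1 library below each control (-0.52 ± 0.18, adjusted p = 0.052). It did not pass, and was called lower with the block (adjusted p = 0.0028) and by edgeR with the third-library term (0.0050). MT-RNR1, the small subunit rRNA, had 21662, 15125 and 9998 with VIM-AS1 and 13116, 20429 and 13052 in the controls. VIM-AS1 replicate 1 was its highest library and VIM-AS1 replicate 3 its lowest (-0.03 ± 0.17, adjusted p = 0.93), and its fold change ranged from -0.30 to 0.25 over the 31 fits. The ratio of MT-RNR1 to MT-RNR2 reads was 0.267, 0.200 and 0.180 with VIM-AS1 and 0.140, 0.168 and 0.145 in the controls. This ratio was higher in every VIM-AS1 library than in every control, but it was picked after its values were seen and is given without a test.

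The makeup of the mitochondrial reads was compared next. Of these reads MT-RNR1 took 1.68%, 1.13% and 1.19% with VIM-AS1 and 0.878%, 0.733% and 0.776% in the controls, higher in every VIM-AS1 library. Complex IV mRNAs took 55.7%, 57.2% and 55.2% with VIM-AS1 and 58.1%, 60.8% and 59.1% in the controls, lower in every VIM-AS1 library. MT-CO1 and MT-CO2 were each lower in this way, while MT-CO3 overlapped, with means of 14.5% against 13.9%. Complex I mRNAs took 23.0%, 22.6% and 22.7% with VIM-AS1 and 22.2%, 20.8% and 21.5% in the controls, higher in every VIM-AS1 library. Taken singly, each complex I mRNA overlapped between groups, and MT-ND4 had the lower mean with VIM-AS1 (6.13% against 6.33%). Of 6 log2 ratios tested, that of complex I to complex IV was the only one whose groups did not overlap (-1.28, -1.34 and -1.28 with VIM-AS1 and -1.39, -1.54 and -1.46 in the controls; difference 0.16, exact permutation p = 0.1, adjusted p = 0.6 over the 6 ratios). The rRNA to mRNA ratio differed by 0.33 (p = 0.2 by the same exact test), the tRNA to mRNA ratio by 0.42 (exact p = 0.4) and the MT-ND4L to MT-ND4 ratio by 0.05 (exact p = 0.9). The other ratios, those of strand and of MT-ATP8 to MT-ATP6, are given above with their exact p, and the adjusted p of those tested here was 0.6 to 0.9.

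**Figure D3:**
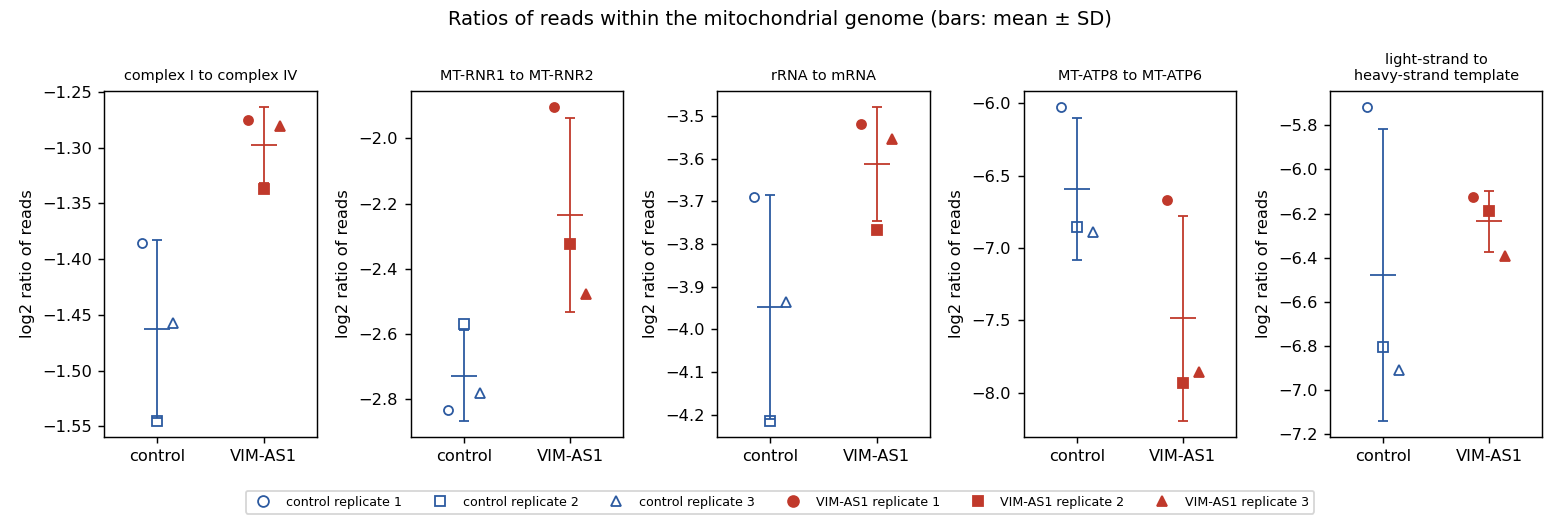
Log2 ratios of reads between groups of mitochondrial genes in each library, with bars for mean ± SD; each panel has its own axis range. Complex I to complex IV and MT-RNR1 to MT-RNR2 are higher in every VIM-AS1 library. Control replicate 1 is the highest control in every panel except that for MT-RNR1 to MT-RNR2.

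Per length, MT-CO2 was the highest and MT-ATP8 the lowest of the mRNAs and rRNAs in every library, while several of the others changed places. In the controls MT-CO2 was highest at 502364 ± 182327 normalized reads per kilobase (SD, n = 3), with MT-CO1 at 365551 ± 139766 and MT-CO3 at 354067 ± 133545. MT-CO2 was above both in all 6 libraries, and MT-CO1 was above MT-CO3 in 3 of 6. MT-ATP6 (215297 ± 81509) and MT-ND1 (103894 ± 43277) followed, each above the next in all 6 libraries. MT-ND4, MT-ND4L, MT-CYB, MT-ND3 and MT-ND2 lay close together, from 91609 ± 33612 to 77776 ± 25798, and each of the first 4 exceeded the next in only 3 of 6 libraries, so their order is within the spread. MT-RNR2 (65097 ± 11093), MT-ND5 (28299 ± 6067), MT-ND6 (24659 ± 7163) and MT-RNR1 (16282 ± 4445) were lower. In VIM-AS1 replicate 1 MT-RNR1 (22707) exceeded both MT-ND5 (21154) and MT-ND6 (17756). MT-ATP8 was lowest (7200.2 ± 1832, and 2669 ± 1649.9 with VIM-AS1), although it shares its mRNA with MT-ATP6. A gene this short and with overlapping neighbours may lose reads in counting, so its level per length is uncertain.

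**Figure D4:**
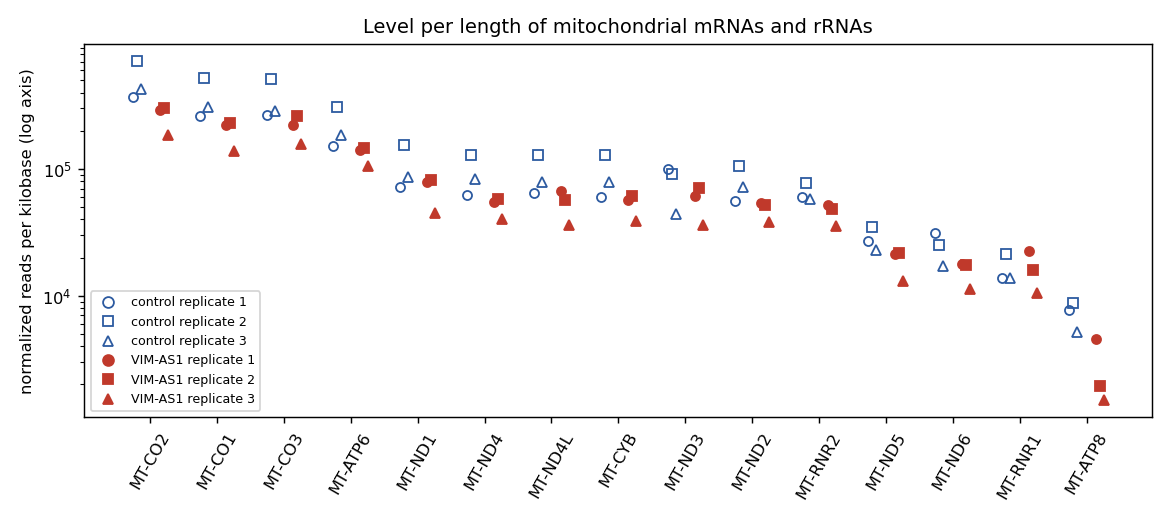
Normalized reads per kilobase of the 13 mRNAs and 2 rRNAs in each library on a log axis, ordered by the mean of the controls. MT-CO2, MT-CO1 and MT-CO3 are highest and MT-ATP8 is lowest in every library.

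The 22 tRNA genes spanned a wide range of reads, and most of those reads came from a few genes. MT-TC, MT-TN, MT-TP, MT-TY and MT-TL1 held 92.5% to 96.5% of the tRNA reads of a library. The 8 tRNA genes of the light strand held 85.3% to 91.6%. For 11 of the 22 the mean was under 20 normalized reads, and 16 were under 100. Mature tRNAs are shorter than typical library inserts and heavily folded and modified, so the level of a tRNA gene here is not the level of the mature tRNA.

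MT-TP, the proline tRNA with the highest coordinates of the light-strand genes, was called in the most fits, some of which share the same fold changes. It had 833, 972 and 535 with VIM-AS1 and 1629.7, 1714 and 1118 in the controls, with no overlap between groups. It fell (-0.95 ± 0.11, adjusted p = 7.35e-06) and was called in 15 of the 31 fits, followed by MT-ATP8 in 13. The lead over MT-ATP8 comes from counting separately the fits above that left only MT-TP and share their fold changes. MT-TR, an arginine tRNA between MT-ND3 and MT-ND4L, had 63.2, 44.1 and 29.7 with VIM-AS1 and 106, 110.0 and 82.9 in the controls. It fell too (-1.16 ± 0.23, adjusted p = 0.0014). MT-TD, which serves aspartate, fell at very low levels, with 2.11, 0 and 7.16 with VIM-AS1 and 10.6, 9.77 and 14.2 in the controls (-2.07 ± 0.63, adjusted p = 0.024). Its reads numbered 0 to 7 per VIM-AS1 library, and edgeR with the same term did not call it (adjusted p = 0.055).

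The other 4 of the 5 most abundant tRNA genes did not pass. MT-TN had 3554, 4149 and 1438 with VIM-AS1 and 3502, 4801 and 1922 in the controls (-0.20 ± 0.12, adjusted p = 0.28). MT-TC had 3960.3, 3174 and 1585 with VIM-AS1 and 5475, 4151 and 1484 in the controls (-0.25 ± 0.13, adjusted p = 0.20), and was called lower with the block (adjusted p = 0.039). These neighbours, separated by 31 bases that are known as the origin of light-strand replication, were lowest in the third library of each group. MT-TY, which overlaps MT-TC by 1 base, had 487, 525 and 320.3 with VIM-AS1 and 736, 716 and 268 in the controls (-0.26 ± 0.14). MT-TL1, which follows MT-RNR2 without a gap, had 487, 441 and 270.2 with VIM-AS1 and 391, 795 and 549.7 in the controls (-0.52 ± 0.19, adjusted p = 0.068) and was called lower with the block (0.014).

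MT-TH, MT-TS2 and MT-TL2, 3 tRNA genes that abut between MT-ND4 and MT-ND5, set control replicate 1 apart. MT-TH had 189.6, 113 and 65.5 with VIM-AS1 and 451, 56.2 and 34.0 in the controls. MT-TS2 had 27.4, 8.82 and 12.3 with VIM-AS1 and 59.5, 12.2 and 11.1 in the controls, and MT-TL2 had 21.1, 7.84 and 9.21 with VIM-AS1 and 57.6, 12.2 and 3.16 in the controls. Control replicate 1 was the highest library for all 3, and none passed (adjusted p = 0.79, 0.60 and 0.83). Control replicate 1 was also the highest library for RN7SL2, an RNA of the signal recognition particle that carries no long poly(A) tail (2992, 3122 and 370.4 with VIM-AS1 and 9565, 966 and 195 in the controls). A list of 6 nuclear-retained or non-polyadenylated RNAs summed to 0.0375%, 0.0291% and 0.0358% of reads with VIM-AS1. In the controls the sum was 0.111%, 0.0263% and 0.0816%, so control replicate 3 was high for the sum and low for RN7SL2. The part of such RNAs in these values was not tested. The labels do not say how RNA was selected for the libraries.

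The other tRNA genes did not pass. MT-TV, between the rRNAs, was at 46.4 ± 3.50 against 35.8 ± 9.58 (SD, n = 3 each), and MT-TE had 31.6, 18.6 and 12.3 with VIM-AS1 and 20.1, 8.55 and 11.1 in the controls. MT-TV (0.39 ± 0.28), MT-TE (0.60 ± 0.43), MT-TM (0.66 ± 0.43), MT-TQ (0.54 ± 0.54), MT-TK (0.37 ± 0.70), MT-TH and MT-TW (0.08 ± 0.69) were the 7 members with a positive fold change. MT-TG (-0.17 ± 0.27), MT-TT (-0.51 ± 0.32), MT-TI (-0.84 ± 0.45), MT-TF (-0.49 ± 0.52), MT-TS1 (-0.16 ± 0.73) and MT-TA (-0.95 ± 0.76) had negative ones. MT-TA, at 0 to 3 reads per library, and MT-TI were lower in every VIM-AS1 library without passing.

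Copies of mitochondrial sequence in nuclear chromosomes could take or give reads. Of 28 annotated nuclear pseudogenes of mitochondrial genes among the genes analysed, 14 passed the filter on low values, 13 of them with a negative fold change. The 3 most abundant lie in one stretch of chromosome 1 that holds several such copies. MTATP6P1 (chr1:633696-634376) had 8549, 10653 and 5641 with VIM-AS1 and 7222, 24245 and 16405 in the controls and fell (-0.83 ± 0.28, adjusted p = 0.046). MTND2P28 (chr1:629640-630683) had 4829.5, 5178 and 3439 with VIM-AS1 and 3479, 9734 and 6244 in the controls (-0.43 ± 0.23, adjusted p = 0.22). MTCO1P12 (chr1:631074-632616) had 3699, 3629 and 2273 with VIM-AS1 and 4054, 6936 and 3931 in the controls and fell (-0.62 ± 0.14, adjusted p = 0.0048). All 3 were highest in control replicate 2, as were their mitochondrial counterparts MT-ATP6, MT-ND2 and MT-CO1. Reads that match both copies cannot be assigned with certainty. MTCO3P12, MTND1P23 and MTND4P12 followed with means of 79.8, 45.6 and 14.1. Of all windows of 100 bases in the mitochondrial gene, 27.9% in MT-CO1, 26.1% in MT-ND2, 11.9% in MT-ATP6, 11.0% in MT-ND1, 4.38% in MT-CO3 and 2.39% in MT-CO2 occurred unchanged in one of 407 annotated nuclear pseudogenes. MT-ATP8, MT-ND3, MT-ND4L, MT-ND4, MT-ND5, MT-ND6, MT-CYB and both rRNAs had no such window. Only unchanged windows were counted, so copies that differ by a base are missed. The part of nuclear copies in the fold changes was not tested.

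The nuclear genes that make and maintain mitochondrial RNA had mostly positive values, opposite in sign to the mitochondrial mRNAs. None passed limma without the third-library term. Of 10 genes of mitochondrial transcription and its termination, 2 rose and none fell (median log2 fold change 0.17). TFB2M, a factor that opens the promoter, rose (283 ± 59.1 against 198 ± 58.2; 0.53 ± 0.14, adjusted p = 0.013), as did MRPL12 (1.05 ± 0.27), a ribosomal protein reported to bind the polymerase. MRPL12 had 899, 1083 and 716 with VIM-AS1 and 1093, 402 and 177 in the controls, so its groups overlapped and control replicate 1 was highest. POLRMT, the mitochondrial RNA polymerase, was at 5484 ± 1637 against 5111 ± 1564 (0.10 ± 0.12, adjusted p = 0.61). TFAM, which packs and bends mitochondrial DNA, was at 622 ± 291 against 515 ± 144 (0.21 ± 0.12, adjusted p = 0.26). TEFM, the elongation factor, was at 63.0 ± 18.9 against 53.8 ± 26.1 (0.31 ± 0.28, adjusted p = 0.49). These 3 did not pass.

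Of 25 genes of mitochondrial RNA processing and stability, 8 rose and none fell (median 0.19). ELAC2, which cuts the 3′ ends of tRNAs out of the precursors, rose (3253 ± 520.1 against 2322 ± 368; 0.48 ± 0.11, adjusted p = 0.0032). PNPT1, the exonuclease of the mitochondrial degradosome, rose (457 ± 199.8 against 318 ± 136; 0.51 ± 0.14), and so did PDE12 (0.67 ± 0.15), which removes poly(A) tails in mitochondria. FASTKD2 (0.48 ± 0.16), DHX30 (0.45 ± 0.12) and DDX28 (0.45 ± 0.12), of the RNA granules, rose as well. LRPPRC, which stabilizes mitochondrial mRNAs, was at 1164 ± 515 against 1319 ± 469 (-0.21 ± 0.11, adjusted p = 0.20), its partner SLIRP at 919 ± 53.4 against 791 ± 249.9 (0.26 ± 0.15) and the poly(A) polymerase MTPAP at 252 ± 47.0 against 251 ± 61.7 (0.02 ± 0.13), and none of these 3 passed.

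Of 17 genes of mitochondrial DNA replication and maintenance, 6 rose and PRIMPOL fell (-1.13 ± 0.30), with a median of 0.30. The polymerase POLG (2454 ± 377 against 1497 ± 269.5; 0.72 ± 0.10), the helicase TWNK (0.60 ± 0.11) and RNASEH1 (0.79 ± 0.12) were among those that rose. Of 20 genes that modify mitochondrial tRNAs and rRNAs 4 rose, NSUN2 by the most (0.76 ± 0.10), and of 9 regulators of mitochondrial biogenesis NRF1 (0.79 ± 0.12), PPARGC1B (0.62 ± 0.16) and GABPB1 (0.62 ± 0.18) rose. Of 78 mitochondrial ribosomal protein genes 27 rose and 1 fell (median 0.23). The background is 11.5% of genes higher and 7.94% lower. Mitochondrial DNA itself was not measured.

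Nuclear subunits of the same complexes had medians near 0. Of 37 nuclear complex I genes NDUFB1 fell (-0.39 ± 0.14) and none rose, with 19 negative and 18 positive values, beside a median of -0.65 for the 7 mitochondrial ones. Of 9 nuclear complex III genes CYC1 rose (0.47 ± 0.11; median 0.06, beside -0.73 for MT-CYB). Of 11 nuclear complex IV genes COX6C fell (-0.40 ± 0.11; median -0.11, beside -0.86 for the 3 mitochondrial ones). Of 18 nuclear ATP synthase genes none passed (median -0.04, beside -1.12 for the 2 mitochondrial ones). The -1.12 is the midpoint of MT-ATP6 (-0.67) and MT-ATP8 (-1.57), of which MT-ATP8 has few reads and an uncertain level. Summed over both genes, mean normalized reads with VIM-AS1 were 0.604 of those in the controls. The difference between nuclear and mitochondrial subunits was not tested.

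**Figure D5:**
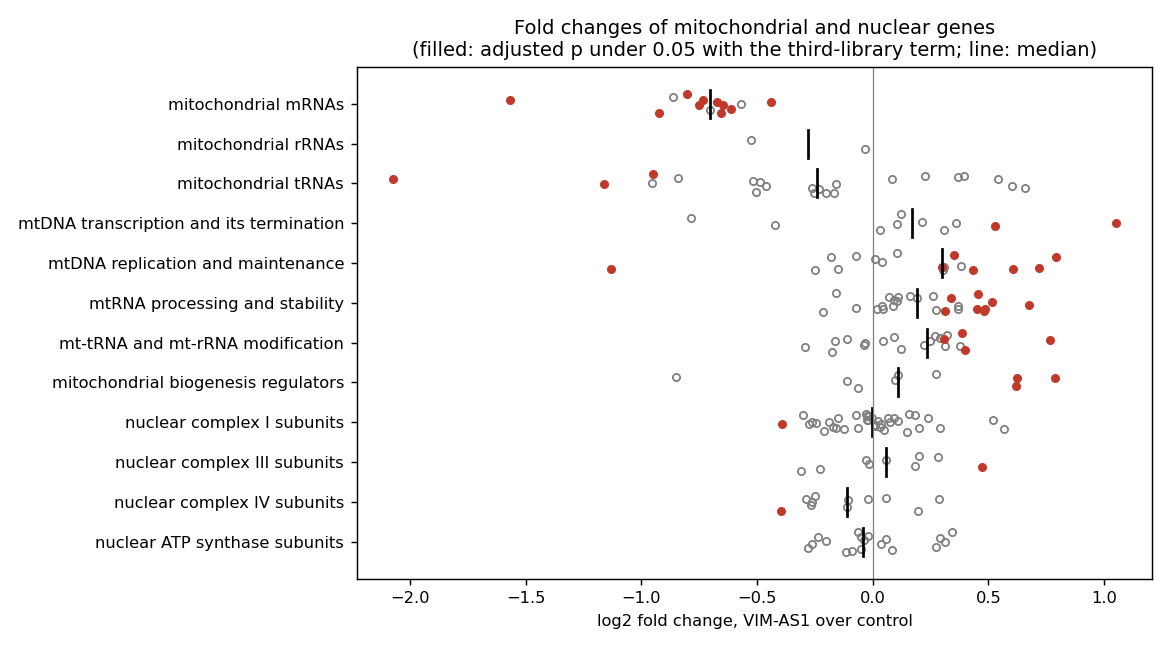
Log2 fold change of each mitochondrial gene by RNA class and of nuclear genes by list; filled points passed limma with the third-library term at an adjusted p of 0.05, and black lines are medians. The medians lie at -0.70 for the mitochondrial mRNAs and between -0.11 and 0.30 for the nuclear lists.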

How the data were processed

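RNA sequencing was deposited for 6 libraries. The deposited values are a signal per gene: per the submitters' processing notes, reads were handled with fastp, HISAT2 and featureCounts on hg38, with versions, annotation and strand setting not given in the sources used here. Deposited numbers proved to be whole reads divided by 1 size factor per library: 100% came out whole within 0.01 read, and totals per library are sums of these reads. A Wilson interval and a floor of 3 reads (0.151 to 0.203 CPM) cover counting error only. Genes were matched by Ensembl ID to GENCODE 29, which also gave every sequence.

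The main test was limma 3.58.1 (R 4.3.3) on log2(value + 1) over 20927 genes whose mean reached 1, with Benjamini-Hochberg adjustment over all of them; all 37 mitochondrial genes passed this filter. A term for the third libraries, a replicate block, other scalings and count tests of the recovered reads (limma-voom, edgeR 4.0.16 and DESeq2 1.42.0) were alternatives. Shares and ratios were compared by exact two-sided permutation tests. Over 13175 genes the deviations of same-numbered libraries from their group means correlated (r = 0.32, 0.72 and 0.84), so the numbers were used as a block in an alternative fit. However, VIM-AS1 replicate 1 correlated better with control replicate 2 (0.42), and control replicate 1 slightly better with VIM-AS1 replicate 2 (0.33). A shift of the third libraries alone would also give positive values among the others. These correlations therefore cannot show a pairing, and the labels state none.

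The members, the gene lists and the third-library term were chosen with earlier results of these data known. Named are all mitochondrial genes, 9 nuclear genes chosen by function, the 6 most abundant pseudogenes, and marker genes of cell types. Up to 4 further members per nuclear list with the largest change among those called are also named. VIM-AS1 and RN7SL2 are named as well.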

Additional observations from a re-analysis of the deposited data

How the results depend on the processing

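Limma without a term for the third libraries called 5 genes of all tested and 0 of the 37 mitochondrial genes. Counts for all genes and, in brackets, mitochondrial genes were 4065 (13) with the third-library term, 5571 (19) with the replicate block, 4702 (4) and 5911 (12) with the GC and length correction added to that term or that block, 4199 (17) by edgeR with the term, 353 (1) by DESeq2 and 336 (1) without the third libraries of both groups. Without the term they were 28 (0) under library size scaling, 48 (0) under library size scaling on reads outside the mitochondrial genome (13 higher and 35 lower) and 17 (0) with no filter. Chosen after seeing the data, the term with TMM gave 4048 (15), with library size scaling 3270 (17), and with library size on reads outside the mitochondrial genome 3630 (17; 1338 higher and 2292 lower). Leaving out 1 library at a time gave 1 to 6 (0) without the term, and with it 236 to 4338 (1 to 19): 2666 (7), 2450 (4) and 280 (1) without VIM-AS1 replicates 1, 2 and 3, and 4338 (19), 3512 (6) and 236 (1) without control replicates 1, 2 and 3. The cause of these differences was not tested. Differences in shares of reads and in the strand ratio kept their direction under each alternative run for them, of which the replicate block cannot change a difference of means. The blocked fit changed no call among the mitochondrial genes beyond those counted here. Groups of 3 cannot reach an exact p under 0.1, nor 3 pairs one under 0.25.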
